A study of Mus musculus with 18 samples.

Results

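The genes described here are the mouse zinc finger genes whose symbol is Zfp9 followed by exactly 2 digits. The rule finds 61 genes among the 32286 features of the count files, named below as Zfp9xx genes or members. They were followed in 8 single-cell RNA-seq libraries of GFP-sorted ileal crypt cells from the study of Setdb1 in Lgr5+ intestinal stem cells, in which the Setdb1 gene was inactivated by tamoxifen. The libraries form 2 experiments of 4 libraries, with 2 WT and 2 Setdb1-KO libraries each, and the total RNA-seq, H3K9me3 and scATAC-seq samples were not used here. In the Lgr5+ experiment, WT stands for Lgr5-GFP-CreERT2 and Setdb1-KO for Lgr5-GFP-CreERT2/Setdb1lox/lox. In the lineage-traced experiment, called traced below, both genotypes also carry the nTnG reporter, which keeps GFP switched on in the descendants of Lgr5+ cells. Every mouse carried the Lgr5 knock-in allele, was male and 60 to 65 days old, and received tamoxifen at 70 mg/kg, the WT controls included. Cells were analysed 5 days after tamoxifen. Of the lines crossed, the study's methods describe back-crossing to C57Bl6 for the floxed Setdb1 line only. A difference of background between the genotypes, or between the experiments through the nTnG line, was not tested. The allele drives GFP and the Cre recombinase from Lgr5, so recombination is limited to cells that express it. The sorted fraction also held cells other than stem cells.

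Most mouse Zfp genes of this kind encode Krüppel-type proteins, in which a KRAB domain is followed by an array of zinc fingers that binds DNA. The KRAB domain recruits Trim28, and Trim28 recruits Setdb1, the methylase that places H3K9me3 and so helps to silence transposable elements. The same genes lie in tandem clusters that arose by repeated duplication, and in many cell types these clusters are themselves covered by H3K9me3. The family therefore stands on both sides of the Setdb1 pathway, as its recruiters and as part of the chromatin it acts on. No mark was measured on these genes in the libraries used here.

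Cells were taken as barcodes with at least 1000 UMIs (Lgr5+) or 500 UMIs (traced), at most 18000 UMIs and under 5% mitochondrial UMIs, a UMI being the tag of 1 captured RNA molecule. This left 2894 to 11423 barcodes per Lgr5+ library, with medians of 4686 to 9336 UMIs, and 3882 to 10239 per traced library, with medians of 961 to 2085 UMIs. Any 2 libraries shared 3 to 34 cell barcodes, at most 0.449% of the smaller one. Levels are in CPM, the UMIs of a gene per 1000000 UMIs of its library. Setdb1 itself measured 11.3 and 9.93 CPM in the Lgr5+ WT libraries and 5.32 and 6.21 CPM in the Lgr5+ Setdb1-KO libraries (adjusted p = 0.047, edgeR; 0.0022 to 0.14 over 12 alternatives, under 0.05 in 6). In the traced experiment it measured 6.11 and 4.21 CPM in WT and 10.4 and 7.85 CPM in the libraries labelled Setdb1-KO, so it was not lower in them before scaling. After the TMM scaling of edgeR the traced log2 fold change was 0.24 (SE 0.23, adjusted p = 0.60, edgeR), and in traced Olfm4-high cells it was -0.25 (SE 0.40, adjusted p = 0.93, edgeR), neither past the threshold. The 3′ counting reads the end of the transcript, which lies outside the deleted exon 3, so none of these values tests the deletion in either experiment. The study reports a PCR check of the deletion in sorted GFP+ cells from the mouse lines of both experiments. The genotype labels of both experiments were taken as given. Olfm4, a marker of crypt base stem cells that defines the Olfm4-high cells used below, measured 3211, 2892, 1744 and 1479 CPM in the Lgr5+ libraries (WT, WT, Setdb1-KO, Setdb1-KO) and 396, 316, 742 and 456 CPM in the traced libraries. The traced WT libraries stood apart: 6 Paneth cell markers took 303114 and 275586 CPM there, against 65955 and 44349 CPM in the traced libraries labelled Setdb1-KO and 8539 to 31739 CPM in the Lgr5+ libraries. None of these 6 markers was at 0 in all libraries. B cell markers summed to 110 CPM in 1 Lgr5+ WT library and to at most 2.31 CPM in the other 7. In the Lgr5+ libraries other marker sums also separated the genotypes. T cell markers summed to 113 and 68.2 CPM in WT and 16.4 and 12.9 CPM in Setdb1-KO. Enteroendocrine markers summed to 467 and 771 CPM in WT and 1892 and 1104 CPM in Setdb1-KO, and enterocyte markers to 1305 and 2156 CPM in WT and 5091 and 2480 CPM in Setdb1-KO. In the traced libraries enterocyte markers ran the other way, with 3754 and 4210 CPM in WT and 887 and 1300 CPM in the libraries labelled Setdb1-KO. Before scaling for composition, stem cell, proliferation, tuft cell and goblet cell markers separated the genotypes in both experiments. Enteroendocrine markers did so in the traced libraries too (138, 133, 148 and 211 CPM). The traced TMM factors were 0.865 and 0.797 in WT and 1.32 and 1.10 in the libraries labelled Setdb1-KO. The gap between the traced goblet cell sums is smaller than that between these factors. No marker sum was computed on the TMM scale. Stem cell markers summed to 3753 and 3371 CPM in Lgr5+ WT, 2191 and 1815 CPM in Lgr5+ Setdb1-KO, 693 and 542 CPM in traced WT and 1313 and 820 CPM in the traced libraries labelled Setdb1-KO. Proliferation markers summed to 559, 477, 446 and 458 CPM in the Lgr5+ libraries and 249, 195, 464 and 329 CPM in the traced libraries, in the same order. Tuft cell markers summed to 46.1, 52.3, 98.7 and 64.2 CPM in the Lgr5+ libraries and 17.04, 12.9, 49.6 and 46.8 CPM in the traced libraries. Goblet cell markers summed to 29149, 23533, 29733 and 29297 CPM in the Lgr5+ libraries and 29427, 30080, 31649 and 30603 CPM in the traced libraries.

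The 61 members lie at 23 places in the genome when members less than 1 Mb apart are joined (GENCODE M21, GRCm38, the assembly also known as mm10). A total of 36 members fall in 3 large runs. The run on chromosome 4 spans chr4:145510759-147848366 and holds 16 members from Zfp990 to Zfp933. The run on chromosome 2 spans chr2:175372436-178078476 and holds 10 members from Zfp968 to Zfp931. The run on chromosome 17 spans chr17:21567008-22867134 and holds 10 members from Zfp948 to Zfp945. Runs of 4 and 3 members lie on chromosomes 7 and 8, and 18 members lie alone. All 61 are annotated as protein coding.

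Close copies limit how well the members can be told apart by short reads. In 25 of the 61 members, at least 1 stretch of 90 bases in the last 500 bases of the longest transcript also occurs in a transcript of another gene, and in 10 members over 50% of these stretches do. The overlap was densest in the chromosome 2 run (9 of 10 members) and the chromosome 4 run (11 of 16), and was found in 1 of 10 members of the chromosome 17 run. In Zfp965, Zfp967, Zfp968 and Zfp969 every stretch was shared with other genes, members of the chromosome 2 run among them, and in Zfp993 every stretch was shared with other genes, Zfp991 and Zfp992 among them. The 10 members with over 50% shared held a median of 37.5 UMIs over the 8 libraries and the 36 members with none shared a median of 898 UMIs. Counts of members with shared ends are uncertain, and the part of shared sequence in their low counts was not tested.

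**Figure D1:**
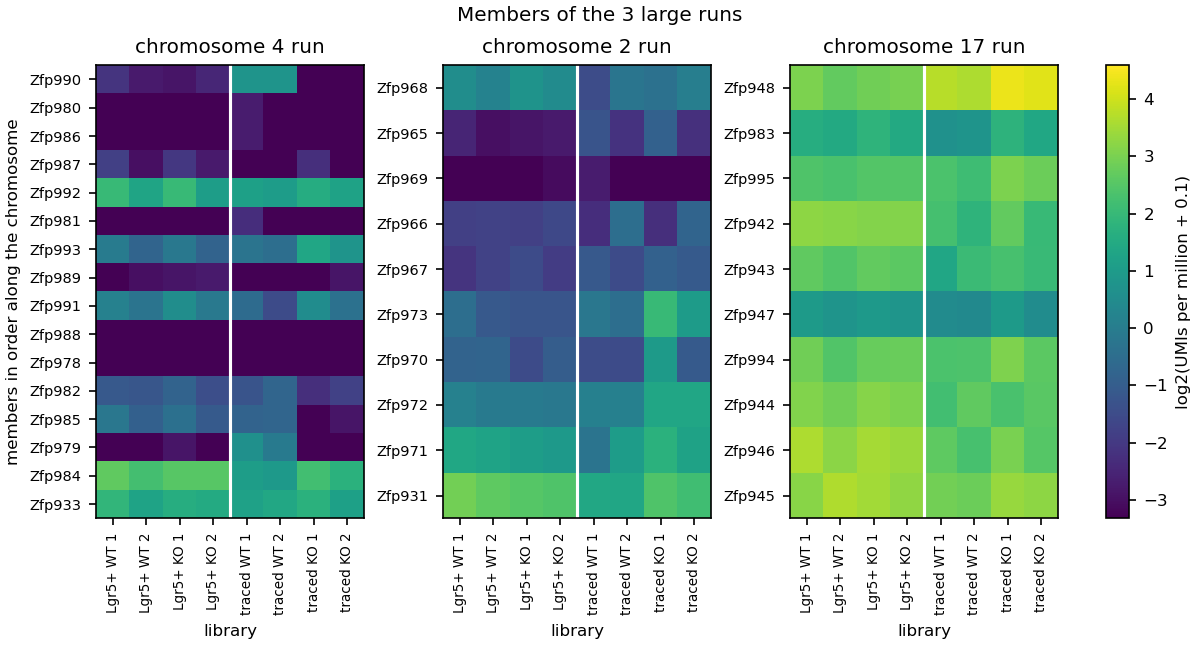
Level of each member of the 3 large runs in the 8 libraries, as log2(CPM + 0.1), with members in their order along the chromosome and the white line between the experiments. Zfp990 and Zfp979 are bright in the traced WT libraries and dark in the traced libraries labelled Setdb1-KO, while every member of the chromosome 17 run was detected in all 8 libraries.

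Promoters are shown for 4 members named in the results below, as 300 bases running from 250 before to 50 after the start of transcription (RefSeq, GRCm38.p6). They are written 5′ to 3′ on the strand of the gene with each CG dinucleotide in capitals. Zfp979 (chr4:147642459-147642758, minus strand) and Zfp985 (chr4:147553027-147553326, plus strand) are neighbours in the chromosome 4 run, and their promoters are 86.7% identical. Zfp941 (chr7:140822129-140822428, minus strand) and Zfp951 (chr5:104859978-104860277, minus strand) lie alone, and the other pairs of these 4 promoters were 57.7% to 59.7% identical.
Zfp979: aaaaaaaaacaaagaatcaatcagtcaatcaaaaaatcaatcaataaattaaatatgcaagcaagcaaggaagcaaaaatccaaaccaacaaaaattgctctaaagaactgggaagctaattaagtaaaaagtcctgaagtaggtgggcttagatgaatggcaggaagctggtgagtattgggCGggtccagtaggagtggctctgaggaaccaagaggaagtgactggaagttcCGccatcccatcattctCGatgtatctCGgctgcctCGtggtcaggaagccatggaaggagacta
Zfp985: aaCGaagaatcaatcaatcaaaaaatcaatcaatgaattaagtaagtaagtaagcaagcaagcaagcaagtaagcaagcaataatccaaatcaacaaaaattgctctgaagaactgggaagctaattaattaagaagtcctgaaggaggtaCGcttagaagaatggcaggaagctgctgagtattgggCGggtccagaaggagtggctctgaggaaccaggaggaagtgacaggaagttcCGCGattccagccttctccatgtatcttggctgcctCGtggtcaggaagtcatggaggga
Zfp941: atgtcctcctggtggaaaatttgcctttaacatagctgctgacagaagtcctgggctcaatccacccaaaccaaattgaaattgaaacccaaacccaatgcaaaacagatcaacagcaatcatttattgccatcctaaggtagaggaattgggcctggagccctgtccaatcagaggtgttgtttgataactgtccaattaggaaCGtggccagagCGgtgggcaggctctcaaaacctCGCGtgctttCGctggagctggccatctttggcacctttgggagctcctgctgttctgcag
Zfp951: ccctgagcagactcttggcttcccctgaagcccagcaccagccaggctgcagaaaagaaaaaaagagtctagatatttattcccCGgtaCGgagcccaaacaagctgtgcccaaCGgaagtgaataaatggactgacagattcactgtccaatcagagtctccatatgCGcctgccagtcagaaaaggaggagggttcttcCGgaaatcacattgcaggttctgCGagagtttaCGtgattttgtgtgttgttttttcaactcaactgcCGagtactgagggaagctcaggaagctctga
The dinucleotide CG occurs 5, 6, 5 and 8 times in these sequences. RefSeq promoters were matched for 51 of the 61 members (58 promoters), and none was matched for Zfp934 or Zfp990. The median was 7 CG per promoter in the members, 16 in 312 promoters of 256 other Zfp genes and 7 in all 32851 promoters. At least 10 CG were found in 32.8% of member promoters, 71.5% of other Zfp promoters and 43.5% of all promoters. The motif TATAAA, searched on both strands, was in 0% of member promoters, 8.33% of other Zfp promoters and 13.6% of all promoters. Within the family, the median was 5 CG in the chromosome 2 run, 4.5 in the chromosome 4 run, 10.5 in the chromosome 17 run and 9 outside the large runs. These are descriptions of the window alone.

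The members together drew 45833 UMIs in the 8 libraries, over a wide range of levels. The 3′ assay counts 1 end per molecule, so no correction for length was made. Of the 61 members, 47 were detected in all 8 libraries and 18 held over 1000 UMIs. A further 25 held over 100 and up to 1000 UMIs, and 9 held 11 to 100. Only 1 to 10 UMIs were found for 5 members (Zfp969, Zfp980, Zfp981, Zfp986 and Zfp989), and 4 held none in any library (Zfp936, Zfp957, Zfp978 and Zfp988). The 8 members with the highest mean level were Zfp950, Zfp938, Zfp948, Zfp932, Zfp945, Zfp946, Zfp961 and Zfp934. Together the 8 held 45.1% of the family's UMIs, Zfp950 alone 10.6%. Zfp950 measured 24.0, 22.9, 23.9 and 19.0 CPM in the Lgr5+ libraries and 16.6, 16.6, 23.9 and 18.7 CPM in the traced libraries, in the order WT, WT, Setdb1-KO, Setdb1-KO. Its 4 Lgr5+ libraries lay close together, with the lowest in a Setdb1-KO library. Zfp938 measured 10.5, 9.26, 12.0 and 10.8 CPM in Lgr5+ and 13.2, 12.1, 20.1 and 23.4 CPM in traced libraries. Its traced groups did not overlap before scaling for composition but did after it (log2 fold change 0.27, adjusted p = 0.55, edgeR).

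In the Lgr5+ experiment, the comparison asks whether loss of Setdb1 in Lgr5+ cells was accompanied by a change of the family. The summed level of the family was nearly the same in both genotypes. It measured 217 and 195 CPM in WT and 212 and 192 CPM in Setdb1-KO over all cells, or 206 ± 15.4 and 202 ± 14.7 CPM (SD, n = 2 libraries each). The log2 ratio was -0.03, against a spread between libraries of 0.11. In Olfm4-high cells (at least 10 Olfm4 UMIs per 10000, and at least 2) it measured 233 and 210 CPM in WT and 226 and 212 CPM in Setdb1-KO, a log2 ratio of -0.02. In Olfm4-low cells, all others, it measured 197 and 176 CPM in WT and 203 and 179 CPM in Setdb1-KO. The groups overlapped or interleaved in all 3 sets of cells. The sums were not tested. With 2 libraries against 2, an exact two-sided permutation test cannot go below p = 0.33.

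**Figure D2:**
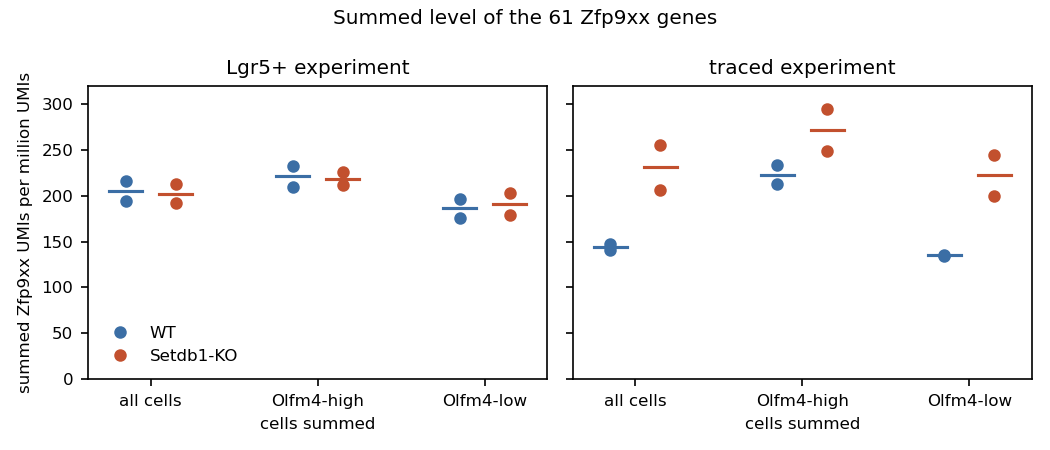
Summed level of the 61 members in CPM, for all kept cells and for Olfm4-high and Olfm4-low cells, with a point per library and a bar at the group mean of 2 libraries. The Lgr5+ groups overlap, and in traced all cells the libraries labelled Setdb1-KO (256 and 206) lie above the WT libraries (147 and 141) before scaling for composition.

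Of the 61 members, 46 passed the filter on low counts in the Lgr5+ experiment and none was called by edgeR at an adjusted p under 0.05 over all 13662 genes tested. Over all genes, 0.812% were called higher and 0.527% lower. DESeq2 also called 0 of the 46. At an unadjusted p under 0.05, edgeR gave 3 of the 46 members (Zfp951, Zfp949 and Zfp974) and DESeq2 gave 2, where edgeR gave 17.5% of all genes. The median log2 fold change was -0.02 over the 46 members and -0.01 over all genes tested, and 22 of the 46 were above 0. On the TMM scale of edgeR, which adjusts library sizes for composition, both Setdb1-KO libraries lay above both WT libraries in 11 members, where 24.4% of all genes tested did so, and in 12 members both lay below, where 25.8% of all genes did so. The members were thus spread to both sides much as the genes at large.

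Zfp951 (ENSMUSG00000072774, chr5:104813169-104860070) had the lowest p among the members. It measured 1.14 and 1.06 CPM in Lgr5+ WT (44 and 44 UMIs) and 0.398 and 0.212 CPM in Lgr5+ Setdb1-KO (11 and 13 UMIs). Both Setdb1-KO libraries lay below both WT libraries, with a log2 fold change of -1.94 (SE 0.38, adjusted p = 0.067, edgeR). With scaling by library size alone the adjusted p was 0.036, the only one of its 12 alternatives under 0.05 (range 0.036 to 0.21). Its UMIs in the traced experiment (14 and 3 in WT, 2 and 9 in the libraries labelled Setdb1-KO) were too few for the filter. There it measured 0.732 and 0.371 CPM in WT and 0.222 and 0.337 CPM in the libraries labelled Setdb1-KO. The log2 ratio was -0.98 before scaling and -1.46 on the TMM scale, which was not tested.

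Zfp949 (ENSMUSG00000032425, chr9:88548020-88571061) measured 3.53 and 3.47 CPM in Lgr5+ WT and 5.76 and 5.49 CPM in Lgr5+ Setdb1-KO, again without overlap. Its log2 fold change was 0.69 (SE 0.15, adjusted p = 0.077, edgeR; 0.069 to 0.21 over 12 alternatives). The gap was seen in Olfm4-low cells, with 3.98 and 3.42 CPM in WT and 7.50 and 6.43 CPM in Setdb1-KO. In Olfm4-high cells the values were 3.16 and 3.51 CPM in WT and 3.21 and 4.02 CPM in Setdb1-KO. The difference between the 2 sets of cells was not tested. The part of the T cell, enteroendocrine, enterocyte, stem cell, proliferation, tuft cell and goblet cell markers, which differed between the same libraries, in the values of Zfp951 and Zfp949 was not tested. Zfp974 measured 3.58 and 3.81 CPM in WT and 2.25 and 2.58 CPM in Setdb1-KO (log2 fold change -0.58, adjusted p = 0.19). The next 7 members by p were Zfp931 (-0.31), Zfp938 (0.22), Zfp976 (-0.39), Zfp934 (-0.26), Zfp971 (-0.34), Zfp930 (-0.20) and Zfp932 (0.16), given as log2 fold changes, with adjusted p from 0.29 to 0.52.

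Restricting the comparison to Olfm4-high cells gave no call among the members either. Setdb1 itself was not called in these cells (log2 fold change -0.86, SE 0.21, adjusted p = 0.18, edgeR). There 45 members were tested and 0 were called by edgeR or by DESeq2, where edgeR called 0.201% of all 12418 genes higher and 0.137% lower. A single member had an unadjusted p under 0.05 by edgeR, and by DESeq2 also 1, where 12.4% of all genes had one by edgeR. It was Zfp951, with 1.70 and 1.07 CPM in WT and 0.446 and 0.335 CPM in Setdb1-KO (log2 fold change -1.81, SE 0.44, adjusted p = 0.18). Without the library Setdb1-KO 1 its adjusted p was 0.045. The median of the 45 members was 0.07 and that of all genes -0.00. The other 9 members with the smallest p were Zfp974 (-0.40), Zfp976 (-0.42), Zfp958 (0.25), Zfp932 (0.25), Zfp994 (0.30), Zfp950 (-0.18), Zfp984 (0.28), Zfp937 (-0.38) and Zfp995 (0.24), as log2 fold changes, with adjusted p from 0.47 to 0.63.

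In the traced experiment, which follows the progeny of Lgr5+ cells, the family sum differed between the groups before any correction for composition. It measured 147 and 141 CPM in WT and 256 and 206 CPM in the libraries labelled Setdb1-KO, or 144 ± 4.64 and 231 ± 35.1 CPM (SD, n = 2 each), a log2 ratio of 0.68 against a spread of 0.16. The Paneth cell, enterocyte, stem cell, proliferation, tuft cell, goblet cell and enteroendocrine markers moved with the groups before scaling for composition, as given above. Their part in this difference was not tested. The 50 most abundant genes held 57.7% and 56.5% of UMIs in traced WT and 38.8% and 37.5% in the libraries labelled Setdb1-KO. On the TMM scale the family sum was 170 and 176 in WT and 194 and 188 in the libraries labelled Setdb1-KO, a log2 ratio of 0.14. In CPM computed without the 90 genes that were among the top 50 of any library, it was 399 and 380 in WT and 484 and 382 in the libraries labelled Setdb1-KO. Scaling by library size alone moved the median of all genes by 0.52 on the log2 scale, so changes are given here on the TMM scale, relative to that shift. A sum over cells cannot tell fewer cells of a type from less RNA per cell.

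Of the 40 members that passed the filter in the traced experiment, edgeR called 2 higher and 2 lower in the libraries labelled Setdb1-KO. Over all 12205 genes, 1.54% were called higher and 7.19% lower. The median log2 fold change was 0.16 over the 40 members, 0.14 over 229 other Zfp genes and 0.01 over all genes tested, and 25 of the 40 members were above 0. Scaled by library size alone, 37 of the 40 were above 0 and the medians were 0.69 over the members and 0.54 over all genes. On the TMM scale both libraries labelled Setdb1-KO lay above both WT libraries in 17 members, where 22.8% of all genes tested did so, and in 8 both lay below, where 27.1% did so. Scaled by library size alone, 13 members were called higher and 2 lower, where 27.2% and 4.02% of all genes were, and of all calls 87.1% were higher, against 17.6% on the TMM scale.

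The 2 members called lower lie in the chromosome 4 run. Zfp990 (ENSMUSG00000078503, chr4:145510759-145539188) held 31 and 13 UMIs in the traced WT libraries and 0 and 0 in the libraries labelled Setdb1-KO. Summed per group this was 1.62 CPM against a limit of 0.084 CPM (3 UMIs over the group), at least 19.3-fold lower in the libraries labelled Setdb1-KO before TMM scaling (adjusted p = 0.00014, edgeR). Zfp979 (ENSMUSG00000066000, chr4:147611937-147642513) held 28 and 7 UMIs in traced WT and 0 and 0 in the libraries labelled Setdb1-KO, at least 15.3-fold lower before TMM scaling (adjusted p = 0.00045, edgeR). Both genes were detected in each traced WT library and in neither traced library labelled Setdb1-KO. Both calls held in all 11 alternatives in which the genes were tested. The genes passed the filter through the traced WT libraries alone, so this count adds no independent support to the calls. Without the library traced WT 1, neither gene passed the filter on low counts.

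In the Lgr5+ experiment the same 2 genes were near the limit in both genotypes. Zfp990 held 5 and 2 UMIs in WT and 1 and 5 in Setdb1-KO, and Zfp979 held 0, 0, 1 and 0 UMIs, although these libraries were deeper. In traced WT, Zfp990 was seen in Olfm4-low cells (26 and 12 UMIs) as well as in Olfm4-high cells (5 and 1 UMIs). Zfp979 was too (25 and 6 against 3 and 1 UMIs). The traced WT libraries thus differed from all 6 other libraries in these 2 genes.

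Zfp985 (ENSMUSG00000065999, chr4:147553277-147585198), the neighbour of Zfp979, held 9 and 4 UMIs in traced WT and 0 and 1 in the libraries labelled Setdb1-KO, a ratio of 17.1 before TMM scaling (95% interval 2.56 to 725, exact, counting error only). In the Lgr5+ libraries it held 30 and 18 UMIs in WT and 18 and 23 in Setdb1-KO. The UMIs of Zfp985 in the traced experiment were too few for the filter. Of the 6 members of the run that were tested, 2 had a log2 fold change above 0 and none but Zfp990 and Zfp979 was called. Zfp984 measured 2.04 and 1.86 CPM in traced WT and 4.45 and 3.22 CPM in the libraries labelled Setdb1-KO (log2 fold change 0.41). Zfp992 measured 2.14 and 1.98 against 2.89 and 2.24 CPM, higher before scaling and lower on the TMM scale (log2 fold change -0.24). Of 2 other genes tested inside the run, 1 was called higher. The summed level of the run was 11.8, 10.8, 14.6 and 10.2 CPM in the traced libraries, a log2 ratio of 0.14 before scaling and -0.42 on the TMM scale, and 17.2, 11.3, 16.0 and 12.7 CPM in the Lgr5+ libraries.

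**Figure D3:**
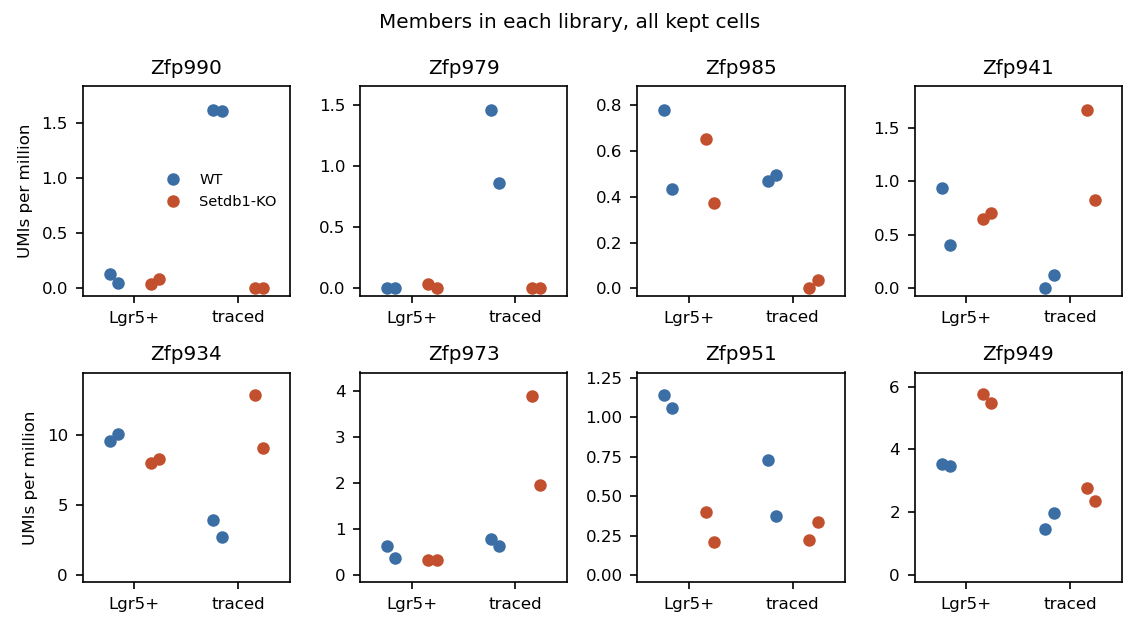
Level in CPM of 8 members in each library (all kept cells), with WT in blue and libraries labelled Setdb1-KO in red. Zfp990 and Zfp979 lie at 0 in both traced libraries labelled Setdb1-KO, and Zfp941 lies near 0 in traced WT. The Lgr5+ groups do not overlap in Zfp949 (Setdb1-KO above) and in Zfp951, Zfp934 and Zfp973 (Setdb1-KO below). On the TMM scale, 24.4% of all genes tested lay above and 25.8% below in this way.

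The 2 members called higher were Zfp934 and Zfp941, which lie alone on chromosomes 13 and 7. Zfp934 (ENSMUSG00000074865, chr13:62479827-62571199) measured 3.92 and 2.72 CPM in traced WT and 12.9 and 9.09 CPM in the libraries labelled Setdb1-KO. Its log2 fold change was 1.12 (SE 0.24, adjusted p = 0.012, edgeR), and it was called in 11 of 12 alternatives, the exception being that without traced WT 2 (adjusted p = 0.10). In the Lgr5+ libraries it measured 9.61 and 10.1 CPM in WT and 7.97 and 8.30 CPM in Setdb1-KO, so the traced WT libraries were the lowest of the 8. Zfp941 (ENSMUSG00000060314, chr7:140807449-140822178) held 0 and 1 UMIs in traced WT and 15 and 22 in the libraries labelled Setdb1-KO, a ratio of 28.2 before TMM scaling (95% interval 4.75 to 1143, exact, counting error only). The fitted log2 fold change on the TMM scale was 4.19 (SE 0.97, adjusted p = 0.017, edgeR), and the log2 ratio of the TMM-scaled means was 3.70. Zfp941 passed the filter through the traced libraries labelled Setdb1-KO alone, so its alternatives add no independent support to the call. It was detected in all 4 Lgr5+ libraries, with 36 and 17 UMIs in WT and 18 and 43 in Setdb1-KO. Its call was lost with DESeq2 (adjusted p = 0.058) and without traced WT 1 (adjusted p = 0.62).

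The chromosome 2 run held no called member in the traced experiment. All 5 of its tested members had a log2 fold change above 0 (median 0.65), where 51.0% of all genes and 66.4% of other Zfp genes did. End stretches are shared with other genes in 9 of 10 members of the run, so these may not be separate observations. The run summed to 6.43 and 8.04 CPM in WT and 18.3 and 13.3 CPM in the libraries labelled Setdb1-KO. This was a log2 ratio of 1.13 before scaling and 0.57 on the TMM scale. Of 11 other genes tested inside this run, 10 were above 0 and 1 was called higher. Zfp973, of this run, measured 0.784 and 0.619 CPM in WT and 3.89 and 1.94 CPM in the libraries labelled Setdb1-KO (log2 fold change 1.37, SE 0.42, adjusted p = 0.064, edgeR), and was called in 5 of 12 alternatives. In the Lgr5+ libraries it measured 0.623 and 0.362 CPM in WT and 0.326 and 0.326 CPM in Setdb1-KO. The 10 tested members of the chromosome 17 run had a median of -0.06, with none called. The run summed to 51.1, 49.9, 76.3 and 64.5 CPM, higher before scaling (log2 ratio 0.48) but not on the TMM scale (-0.06). The remaining members of the 10 with the smallest p were Zfp960 (1.68), Zfp932 (0.58), Zfp993 (0.97), Zfp961 (0.51) and Zfp972 (0.82), as log2 fold changes, with adjusted p from 0.12 to 0.21. Of these, Zfp960 and Zfp993 share over 50% of their last 500 bases with other genes.

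In traced Olfm4-high cells the counts were small, with 133 to 899 UMIs of the family per library. The family sum was 233 and 213 CPM in WT and 295 and 250 CPM in the libraries labelled Setdb1-KO. This was a log2 ratio of 0.29 before scaling for composition, against a spread of 0.14. Without Setdb1-KO 1 the ratio was 0.16, and over the 4 libraries left out in turn it ranged from 0.16 to 0.41. The gate did not remove the difference of make-up. Paneth cell markers took 118441 and 137318 CPM in WT and 47754 and 24179 CPM in the libraries labelled Setdb1-KO. Enterocyte markers summed to 1614 and 1528 CPM against 428 and 351 CPM, and tuft cell markers also separated the groups. The part of these markers in the ratio was not tested. Only 20 members passed the filter, and 0 were called by edgeR or by DESeq2, where edgeR called 0.334% of all 8991 genes higher and 1.32% lower. None of the 20 had an unadjusted p under 0.05 by either tool, where 8.71% of all genes had one by edgeR. The medians were 0.24 over the 20 members and -0.01 over all genes. The 10 members with the smallest p were Zfp934 (0.61), Zfp994 (0.59), Zfp931 (0.72), Zfp944 (-0.64), Zfp948 (-0.35), Zfp995 (0.49), Zfp976 (0.55), Zfp932 (0.33), Zfp958 (0.51) and Zfp930 (0.32), as log2 fold changes, all with adjusted p of at least 0.75. Zfp934 held 24 and 3 UMIs in WT and 39 and 42 in the libraries labelled Setdb1-KO, and its log2 fold change of 0.61 had an SE of 0.40. In traced Olfm4-low cells the family sum was 136 and 135 CPM in WT and 245 and 200 CPM in the libraries labelled Setdb1-KO. The log2 ratio was 0.72 before scaling for composition. Of 37 members tested in these cells, edgeR called 1 higher and 1 lower, where 1.66% and 7.64% of all 11967 genes were.

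The experiments share no library, so their effects on the members can be set against each other. Over the 38 members tested in both, 13 were higher in both, 8 lower in both and 17 of opposite sign, and the log2 fold changes had a Pearson r of -0.08 and a Spearman rho of -0.10 across genes, which are not independent replicates. The difference between the 2 genotype effects was tested by an interaction term in edgeR on all 8 libraries. It called 3 of 48 members. The effect was higher in traced than in Lgr5+ libraries for Zfp934 (log2 difference 1.38, SE 0.27, adjusted p = 0.0081), where 1.51% of all 13781 genes were called in that direction. It was lower for Zfp990 (adjusted p = 0.013) and Zfp985 (adjusted p = 0.048), where 6.07% of all genes were. The call of Zfp934 held in all 13 alternatives, that of Zfp990 in 10 and that of Zfp985 in 3. Scaled by library size alone, 84.3% of all interaction calls were higher, against 19.9% on the TMM scale. Zfp974 and Zfp941 lay just outside, with adjusted p of 0.054 and 0.055.

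**Figure D4:**
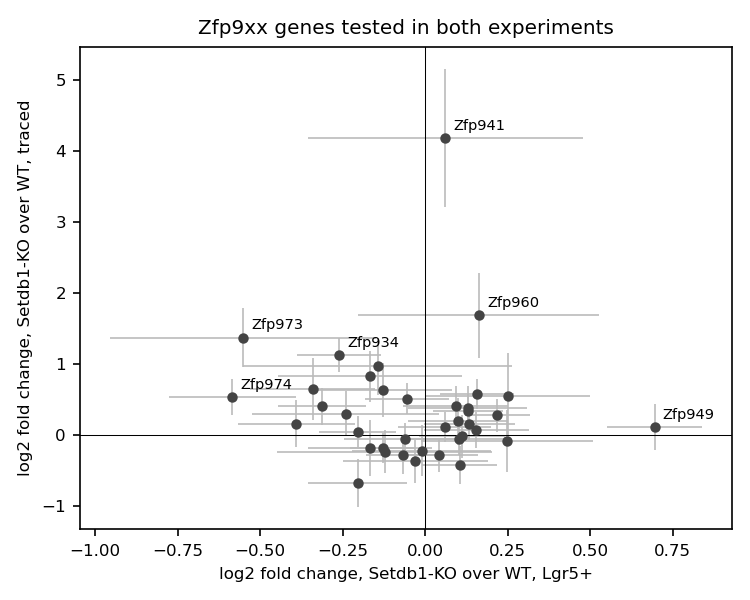
Log2 fold change of Setdb1-KO over WT, as labelled, in all cells of the Lgr5+ experiment (x axis) and the traced experiment (y axis), for the 38 members tested in both, with bars of 1 SE. The points form no line (Pearson r = -0.08), and Zfp941 lies far up on the traced axis with a wide bar.

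In the 4 WT libraries, Olfm4-high cells were compared with the Olfm4-low cells of the same library. Before scaling for composition, the family sum was higher in Olfm4-high cells in each of the 8 libraries. The ratio was 1.11 to 1.19 in the Lgr5+ libraries, 1.72 and 1.58 in the traced WT libraries and 1.21 and 1.25 in the traced libraries labelled Setdb1-KO. Genes at large also stood higher on this scale. With library size alone, the median log2 fold change in WT was 0.22 over all genes tested and 0.38 over the members. The Paneth cell markers in Olfm4-low cells took 327142 and 287190 CPM in traced WT and 11756 to 71152 CPM in the other 6 libraries, and their part in the ratio was not tested. Other markers moved with the gate in the 4 WT libraries (2 Lgr5+, then 2 traced). Proliferation markers summed to 669, 550, 493 and 431 CPM in Olfm4-high cells, against 559, 477, 249 and 195 CPM over all cells. Goblet cell markers summed to 4449, 5851, 13678 and 16660 CPM in Olfm4-high cells, against 29149, 23533, 29427 and 30080 CPM over all cells. Enterocyte markers were also lower. The part of these markers in the calls below was not tested.

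Of 44 members tested, edgeR called 13 higher in Olfm4-high cells and 0 lower. Over all 13058 genes, 25.7% were called higher and 27.0% lower. At an unadjusted p under 0.05, 14 members were higher and 0 lower, where 29.0% and 29.6% of all genes were, and DESeq2 was not run on this comparison. The median log2 fold change was 0.26 over the members, 0.35 over 253 other Zfp genes and 0.02 over all genes tested. Among other Zfp genes 39.9% were called higher and 4.35% lower, so the tilt was not particular to the members. Scaled by library size alone, 9 members were called, and of all calls 61.9% were higher, against 48.7% on the TMM scale. Leaving out Lgr5+ WT 1 left 3 members called, and leaving out Lgr5+ WT 2 left 2. In the 4 Setdb1-KO libraries, a comparison added after the data were seen, 4 members were called higher and 1 lower of 41, where 13.7% and 17.4% of all genes tested were. The 4 called higher there (Zfp930, Zfp934, Zfp984 and Zfp992) were also called in WT, and the member called lower was Zfp949.

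Zfp934 had the smallest p of the members. In Olfm4-high cells it measured 12.5 and 13.0 CPM in the Lgr5+ WT libraries and 10.9 and 4.79 CPM in the traced WT libraries, and in Olfm4-low cells 6.06 and 6.34 CPM and 3.01 and 2.55 CPM. It was higher in Olfm4-high cells in all 4 libraries (log2 fold change 1.06, SE 0.12, adjusted p = 3.1e-05) and was called in all 9 alternatives. Zfp984, of the chromosome 4 run, measured 8.40, 5.53, 4.99 and 6.39 CPM in Olfm4-high and 3.64, 3.47, 1.65 and 1.48 CPM in Olfm4-low cells of the same libraries. Its log2 fold change was 0.99 (SE 0.17, adjusted p = 0.00057), also called in all 9.

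Of the 8 tested members of the chromosome 4 run, 5 were among the 13, where 25.7% of all genes were called higher. They were Zfp984, Zfp985 (1.77), Zfp991 (1.20), Zfp992 (0.92) and Zfp993 (1.22), as log2 fold changes. Zfp993 and Zfp991 share 100% and 65.7% of their end stretches with other genes, Zfp992 among them, and may not be separate calls. None of the 10 tested members of the chromosome 17 run was called by edgeR (0 also at an unadjusted p under 0.05), and their median was 0.04. The other members called were Zfp940 (0.97), Zfp975 (0.72), Zfp976 (0.70), Zfp930 (0.52), Zfp931 (0.47), Zfp932 (0.39) and Zfp938 (0.36). Zfp940 was called in 2 of 7 alternatives and Zfp931, Zfp932, Zfp991 and Zfp993 in 5 each.

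**Figure D5:**
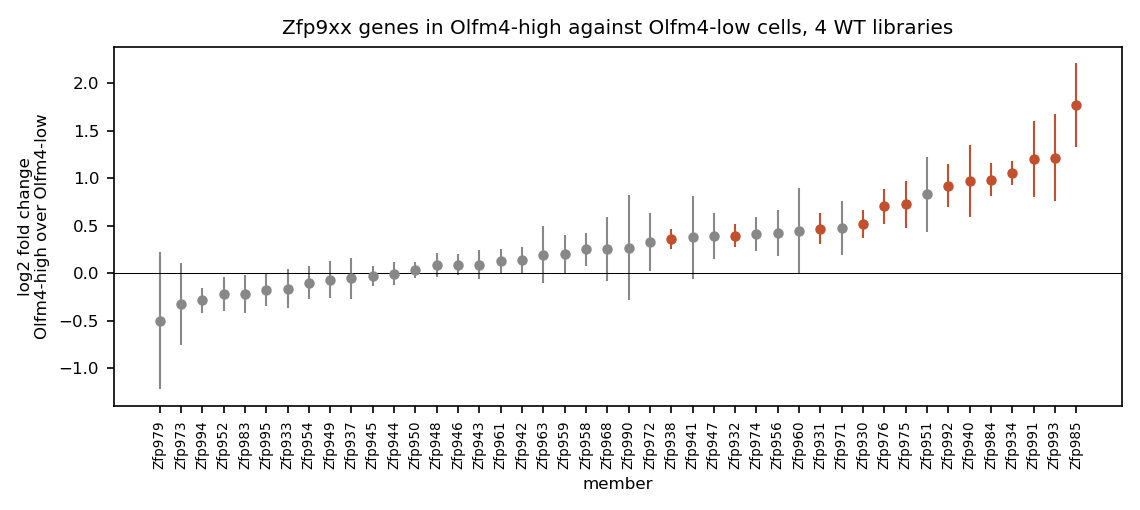
Log2 fold change of Olfm4-high over Olfm4-low cells for the 44 members tested in the 4 WT libraries, in rising order, with bars of 1 SE and the 13 called members in red. The called members all lie above 0, from Zfp938 (0.36) to Zfp985 (1.77).

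The proteins that KRAB zinc finger proteins work through were followed as a list of 24 genes, all of them tested. They include Trim28, the co-repressor that binds the KRAB domain, the HP1 proteins Cbx1, Cbx3 and Cbx5, which read H3K9me3, and the HUSH subunits Tasor, Mphosph8 and Pphln1. In the Lgr5+ experiment 0 were called higher and 1 lower, where 0.812% and 0.527% of all genes were, and the 1 was Setdb1 itself (log2 fold change -0.85, SE 0.14). In the traced experiment 0 were called by edgeR, with 2 at an unadjusted p under 0.05, where 20.3% of all genes had one, and the list median was 0.28. Trim28 measured 62.8, 51.4, 61.7 and 53.6 CPM in the Lgr5+ libraries and 42.8, 27.5, 67.8 and 51.9 CPM in the traced libraries, and was not called in either (log2 fold changes 0.03 and 0.22). In WT cells, 18 of the 24 were higher in Olfm4-high than in Olfm4-low cells and 0 lower, where 25.7% and 27.0% of all genes were, with a median of 0.40. How many of the 24 stay called without 1 of the Lgr5+ WT libraries, which lowered the count of members from 13 to 2 or 3, was not tested. Trim28 was among them (log2 fold change 0.86, SE 0.08), as were the maintenance methylase Dnmt1 (0.90) and Setdb1 (0.43).

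The other Zfp genes are given for the same comparisons, and their difference from the members was not tested. Of 266 tested in the Lgr5+ experiment 3 were called higher and 0 lower (median -0.06), where 0.812% and 0.527% of all genes were. Of 229 tested in the traced experiment 2 were called higher and 3 lower, where 1.54% and 7.19% of all genes were. In droplets with fewer than 50 UMIs, which hold free RNA, the family sum was 149, 147, 128 and 130 CPM in the Lgr5+ libraries and 107, 87.0, 156 and 130 CPM in the traced libraries. It was below the sum in cells of the same library in all 8, and in the traced libraries it followed the same order of the groups as in cells.

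In single cells the members were sparse. Thinned to 1000 UMIs per cell, 18.2% to 19.6% of Lgr5+ cells held a UMI of any member, with WT at 19.5% and 18.2% and Setdb1-KO at 19.6% and 18.2%. Without thinning the shares were 77.2%, 67.5%, 82.0% and 59.6%, in the same order as the median UMIs per cell. Thinned to 500 UMIs, the traced shares were 8.72% and 7.11% in WT and 12.3% and 9.01% in the libraries labelled Setdb1-KO (27.3%, 20.9%, 30.3% and 37.0% without thinning). Thinning evens out depth but not composition, and the part of composition in the traced shares was not tested. No cell of any library held more than 11 members.

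Over all 8 libraries, the genes outside the family whose level followed the family sum most closely were Tmem260, Xpo4, Cds2, Hmgn2 and Kpna4, with Pearson r of 0.994, 0.992, 0.992, 0.991 and 0.991 on log2(CPM + 1). These values describe 8 libraries in 2 experiments that differ in depth and composition.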

How the data were processed

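Single-cell RNA-seq counts of 8 libraries were used. Per the labels, the authors made them with Cell Ranger 6.1.1 against mm10, and they deposited raw UMI counts per gene and barcode for all barcodes, without normalization or filtering (the file headers name another major version). UMIs were summed per library over barcodes with 1000 (Lgr5+) or 500 (traced) to 18000 UMIs and under 5% mitochondrial UMIs, and within Olfm4-high and Olfm4-low cells. Doublets were not removed. Total UMIs of kept barcodes were 8083033 to 61336439 per library. Replicate libraries are biological replicates per the study's methods. Sums were tested by the quasi-likelihood test of edgeR 4.0.16, after its filterByExpr step for low counts and TMM scaling, on the 4 libraries of an experiment, on all 8 for the interaction, and with library as a block for Olfm4-high against Olfm4-low cells, with Benjamini-Hochberg adjustment over all genes at 0.05. The tests were also run on simulated counts with a fixed dispersion and no shift of composition, which cannot check the traced calls. DESeq2 1.42.0, DESeq2 size factors, library size alone, no filter, a replicate block, each library left out, other cell limits and other Olfm4 gates were alternatives. Intervals and limits of 3 UMIs cover counting error only. Each SE given with an edgeR log2 fold change was derived from the test. It is the absolute log2 fold change divided by the square root of the F value. Genes named are Setdb1, Olfm4, Trim28, members with an adjusted p under 0.05, the 10 smallest p per genotype comparison, the 8 highest members and 5 genes most like the family sum. Members named to describe runs, shared ends, low counts or single sets of cells were chosen after their values were seen. The members and gene lists were chosen with earlier results of these data known. Positions are from GENCODE M21 and promoters from RefSeq. R 4.3.3, Python 3.11.15, numpy 2.4.6, pandas 2.3.3 and scipy 1.17.1 were used.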

Additional observations from a re-analysis of the deposited data

Results flagged for a closer look

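The genotype effect differed between the traced and the Lgr5+ experiment, by the interaction term in edgeR, for 3 members. For Zfp934 the log2 difference (traced effect minus Lgr5+ effect) was 1.38 (SE 0.27, adjusted p = 0.0081). For Zfp990 the fitted log2 difference was -8.79 (adjusted p = 0.013), a value that rests on 0 UMIs in both traced libraries labelled Setdb1-KO and so depends on the prior count. For Zfp985 it was -4.08 (SE 1.12, adjusted p = 0.048), with 0 and 1 UMIs in those libraries. Paneth cell markers held 303114 and 275586 CPM in the traced WT libraries, against 65955 and 44349 CPM in the traced libraries labelled Setdb1-KO, and their part in these differences was not tested. With 2 libraries per group, single libraries were not screened as outliers.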

How the results depend on the processing

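The main limits are 2 libraries per group, low counts in the traced libraries and the different make-up of traced WT cells. In the Lgr5+ experiment, scaling by library size alone called 1 member lower (Zfp951), and leaving out each library in turn gave 0 to 1 lower in Olfm4-high cells. In traced all cells, the members called higher were 2, against 13 by library size alone, 1 with DESeq2, 4 without a filter on low counts and 1 to 4 with a library left out (1 without either WT library, 4 without Setdb1-KO 2). Those called lower were 2, against 3 without a filter on low counts and 0 to 2 with a library left out. The 0 came without traced WT 1, where Zfp990 and Zfp979 were not tested. The interaction called 3 members, against 10 by library size alone, 6 without a filter and 1 to 3 with a library left out. The lowest count came without Lgr5+ Setdb1-KO 2 and without traced WT 1. In Olfm4-high against Olfm4-low cells, 13 members became 2 to 13 with a library left out and 5 in the Setdb1-KO libraries. The traced family sum (log2 ratio 0.68) became 0.17 with DESeq2 size factors, 0.14 with TMM, 0.16 outside the most abundant genes and 0.52 to 0.83 with a library left out. In traced Olfm4-high cells (0.29) it became 0.16 to 0.41 with a library left out, the lowest without Setdb1-KO 1. Where 1 library was left in a group, it was assumed to vary like the other group.

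Scaling by library size alone put 37 of the 40 members tested in traced all cells above 0, against 25 with TMM. The members with the 10 smallest p per genotype comparison and those called were followed through each alternative in which they were tested. Directions turned for 3 that were not called, in traced Olfm4-high cells. They were Zfp948 with the Olfm4 gate at 20 (0.17), Zfp930 with the gate at 5 (-0.20) and Zfp976 without the library Setdb1-KO 1 (-0.12). With a library left out, Zfp976 ranged from -0.12 to 1.20. Olfm4 itself turned in traced all cells without that library (-0.034; -0.034 to 0.39 with a library left out). The cause was not tested. Over the alternatives, all genes called higher and lower ranged from 24 to 382 and 11 to 191 in Lgr5+ all cells, 20 to 252 and 14 to 340 in Lgr5+ Olfm4-high cells, 65 to 3316 and 491 to 1635 in traced all cells, and 2 to 246 and 47 to 295 in traced Olfm4-high cells. They ranged from 65 to 2775 and 464 to 1140 for the interaction, and 1633 to 3415 and 1789 to 3727 between Olfm4-high and Olfm4-low cells.

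Replicate numbers were shared between groups. The deviations of same-numbered libraries correlated at 0.01 (Lgr5+) and 0.31 (traced) over 2 pairs, which does not show that the numbers pair the samples. With a replicate block, members called higher in traced all cells were 6 and members called by the interaction 6. All genes called rose too, from 188 to 944 higher and 878 to 1635 lower in traced all cells, and from 208 to 589 higher and 837 to 1140 lower for the interaction. The counts of members called in the Lgr5+ comparisons stayed at 0.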
